A study of Homo sapiens with 9 samples.

Results

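The genes described here lie on the long arm of human chromosome 5, in the stretch from position 51372736 to 151093577 of the GRCh38 build. They were chosen by measured values, for a partial downward shift in clone SC07, 1 of 3 clones derived from SK-MEL-5 cells. A gene was counted as a member when it lay on chromosome 5 and reached at least 1 CPM, a read count scaled to the size of its library, in at least 3 of the 9 libraries. Of 2815 chromosome 5 genes in the count table, 664 met that minimum, and 387 of these start inside the stretch, which is called the window below. The other 277 served as the rest of the chromosome, with 132 on the short-arm side of the window and 145 on its distal side. A start is the leftmost coordinate of a gene, whatever its strand.

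SK-MEL-5 is an established cell line from human melanoma and is BRAF-mutant. SC01, SC07 and SC10 are clones each grown from a single parental cell without drug, and they were picked for sequencing by how they first responded to the BRAF inhibitor PLX-4720. Each clone gave 3 RNA libraries of untreated cells, so the 3 groups share the line, the mutation and the absence of drug, and each group is 1 clone. Separate cultures behind the 3 libraries of a clone are not stated in the labels. The p-values below therefore measure only the spread between these libraries, and a library batch cannot be told apart from a clone. DNA was not measured in the files used here, so the number of copies of chromosome 5 in each clone is not known.

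Chromosome 5 is gene-dense near both ends and carries most of its genes on the long arm. That arm holds the tumour suppressor APC and the clustered protocadherins, which are cell surface adhesion proteins of neurons and related cells. It also holds bands whose loss is known from myeloid disease, with RPS14, CSNK1A1 and EGR1. Genes along a chromosome arm have unrelated functions for the most part, so a block of neighbours that moves together mixes housekeeping genes with tissue genes.

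The start regions of 4 genes named below are printed for reference. PARP8 and ISL1 are the nearest measured genes on either side of the first edge of the window. PCSK1 and ELOVL7 are window genes that were very low and very high against SC01, in both SC07 and SC10. Each run covers 250 bases before to 50 bases after the RefSeq start on GRCh38.p14, 5′ to 3′, with each CG dinucleotide in capitals.
PARP8 promoter, chr5:50665681-50665980 (plus strand): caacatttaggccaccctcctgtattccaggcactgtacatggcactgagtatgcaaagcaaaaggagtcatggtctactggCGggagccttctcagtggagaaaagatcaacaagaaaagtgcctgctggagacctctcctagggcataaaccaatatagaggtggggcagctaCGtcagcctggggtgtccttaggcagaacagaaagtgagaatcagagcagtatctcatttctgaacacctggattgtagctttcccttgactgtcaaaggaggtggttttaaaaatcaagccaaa
ISL1 promoter, chr5:51383198-51383497 (plus strand): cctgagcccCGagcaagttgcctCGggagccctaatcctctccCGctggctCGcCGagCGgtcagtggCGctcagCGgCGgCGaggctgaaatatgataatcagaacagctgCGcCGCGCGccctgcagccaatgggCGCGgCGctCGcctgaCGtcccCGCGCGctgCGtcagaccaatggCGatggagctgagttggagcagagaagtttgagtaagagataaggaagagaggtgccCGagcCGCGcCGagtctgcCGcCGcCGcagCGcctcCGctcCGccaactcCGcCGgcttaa
PCSK1 promoter, chr5:96433199-96433498 (minus strand): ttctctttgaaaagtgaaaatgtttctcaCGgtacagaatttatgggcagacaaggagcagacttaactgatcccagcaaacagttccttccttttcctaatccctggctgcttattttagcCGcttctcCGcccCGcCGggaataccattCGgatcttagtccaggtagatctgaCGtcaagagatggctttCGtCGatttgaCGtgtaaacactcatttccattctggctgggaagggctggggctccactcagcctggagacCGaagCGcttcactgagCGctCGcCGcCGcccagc
ELOVL7 promoter, chr5:60844220-60844519 (minus strand): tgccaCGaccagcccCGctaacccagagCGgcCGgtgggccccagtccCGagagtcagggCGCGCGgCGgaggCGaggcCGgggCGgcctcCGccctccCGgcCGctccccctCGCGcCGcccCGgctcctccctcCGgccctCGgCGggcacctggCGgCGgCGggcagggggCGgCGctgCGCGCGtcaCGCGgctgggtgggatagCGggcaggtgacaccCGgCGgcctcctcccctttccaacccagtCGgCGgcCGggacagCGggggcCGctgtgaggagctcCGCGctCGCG
The PARP8 stretch held 2 CG dinucleotides, that of ISL1 36, that of PCSK1 16 and that of ELOVL7 44. The median of the window was 25, and a link between CG count and level was not tested.

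The table held 30224066 to 39454087 counts per library. The libraries of a clone differed by a median of 0.068 to 0.098 on the log2 scale over the chromosome 5 genes with the minimum. The exception was SC10 replicate 3, which differed from SC10 replicates 1 and 2 by 0.111 and 0.118. Of 7 melanocyte markers 6 reached 1 CPM, while SOX10 had 0 counts in all 9 libraries. Absence of SOX10 RNA and loss of its reads in the counting cannot be told apart here. Their summed level was 10724 to 11382 CPM in SC01, 24353 to 24855 in SC07 and 15153 to 15372 in SC10. Of 6 fibroblast markers 3 reached 1 CPM, with summed levels of 132 to 137 CPM in SC01, 427 to 489 in SC07 and 335 to 371 in SC10. Of 6 keratinocyte markers 3 reached 1 CPM, with sums of 21.8 to 24.3 CPM in SC01, 23.3 to 23.4 in SC07 and 24.3 to 27.8 in SC10, and KRT1 had 0 counts throughout. Of 5 immune markers 1 reached 1 CPM, and the sums were 0.269 to 0.853 CPM in SC01, 3.05 to 3.92 in SC07 and 0.856 to 1.30 in SC10. The melanocyte, fibroblast and immune sums were furthest from SC01 in SC07, as the window was, but single markers were not alike. PMEL, TYR and DCT were furthest from SC01 in SC07, whereas MITF, MLANA and TYRP1 were so in SC10, with TYRP1 falling. The fibroblast sum was nearly all LUM (clone means 131, 462 and 350 CPM in SC01, SC07 and SC10), while COL1A1 was highest in SC01. PTPRC (0.173, 3.12 and 0.735 CPM) made up most of the immune sum in SC07. The part of these markers in the window's values was not tested. In such bulk libraries fewer cells of a type and less RNA per cell cannot be told apart.

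Window genes were lower in SC07 than in SC01 by a median of 0.35 in log2 change (-0.35), which corresponds to 78.3% of the SC01 level. The middle 50% of the window genes ran from -0.72 to -0.07, and 299 of 387 lay below 0. On the short-arm side the median was 0.04, on the distal side -0.01, and over all 18009 genes tested -0.01. Scaled by library totals alone, the window had -0.46, the short-arm side -0.06, the distal side -0.12 and all genes tested -0.12. These values chose the window and are given as a description. With edgeR at an adjusted p under 0.05, 255 window genes (65.9%) were called lower in SC07 and 53 (13.7%) higher, where 30.5% of all genes tested were called lower and 31.5% higher. The short-arm side had 47 genes lower and 51 higher, and the distal side 41 lower and 46 higher. With library totals these splits were 54 and 42 on the short-arm side and 62 and 39 on the distal side.

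SC10 lay above SC07 in the window by a median of 0.33, or 125% of the SC07 level. The middle 50% of window genes ran from 0.10 to 0.54, and 69 of 387 lay below 0. The short-arm side was also higher in SC10, by a median of 0.24, whereas the distal side had a median of -0.07 and all genes tested -0.01. Of the window genes 242 (62.5%) were called higher and 21 (5.43%) lower in SC10, against 24.8% and 23.0% of all genes tested. On the short-arm side 75 genes were higher and 9 lower, and on the distal side 29 were higher and 47 lower. This pair holds the SC07 libraries that chose the window, so its values are a description as well. Any 2 of the 3 pairs have a clone in common, so their values are not independent of each other.

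The pair of SC10 and SC01 holds no SC07 library. Here the window had a median of -0.06, with the middle 50% from -0.45 to 0.34, against 0.24 on the short-arm side, -0.10 on the distal side and -0.01 over all genes tested. In the window 145 genes (37.5%) fell and 129 (33.3%) rose in SC10, where 32.4% of all genes tested fell and 33.5% rose. With library totals the split became 181 lower and 99 higher, and the median of all genes tested moved to -0.12. On the short-arm side 27 genes (20.5%) fell and 76 (57.6%) rose in SC10, and on the distal side 63 (43.4%) fell and 42 rose. With library totals these were 34 and 63, and 76 and 38.

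**Figure D1:**
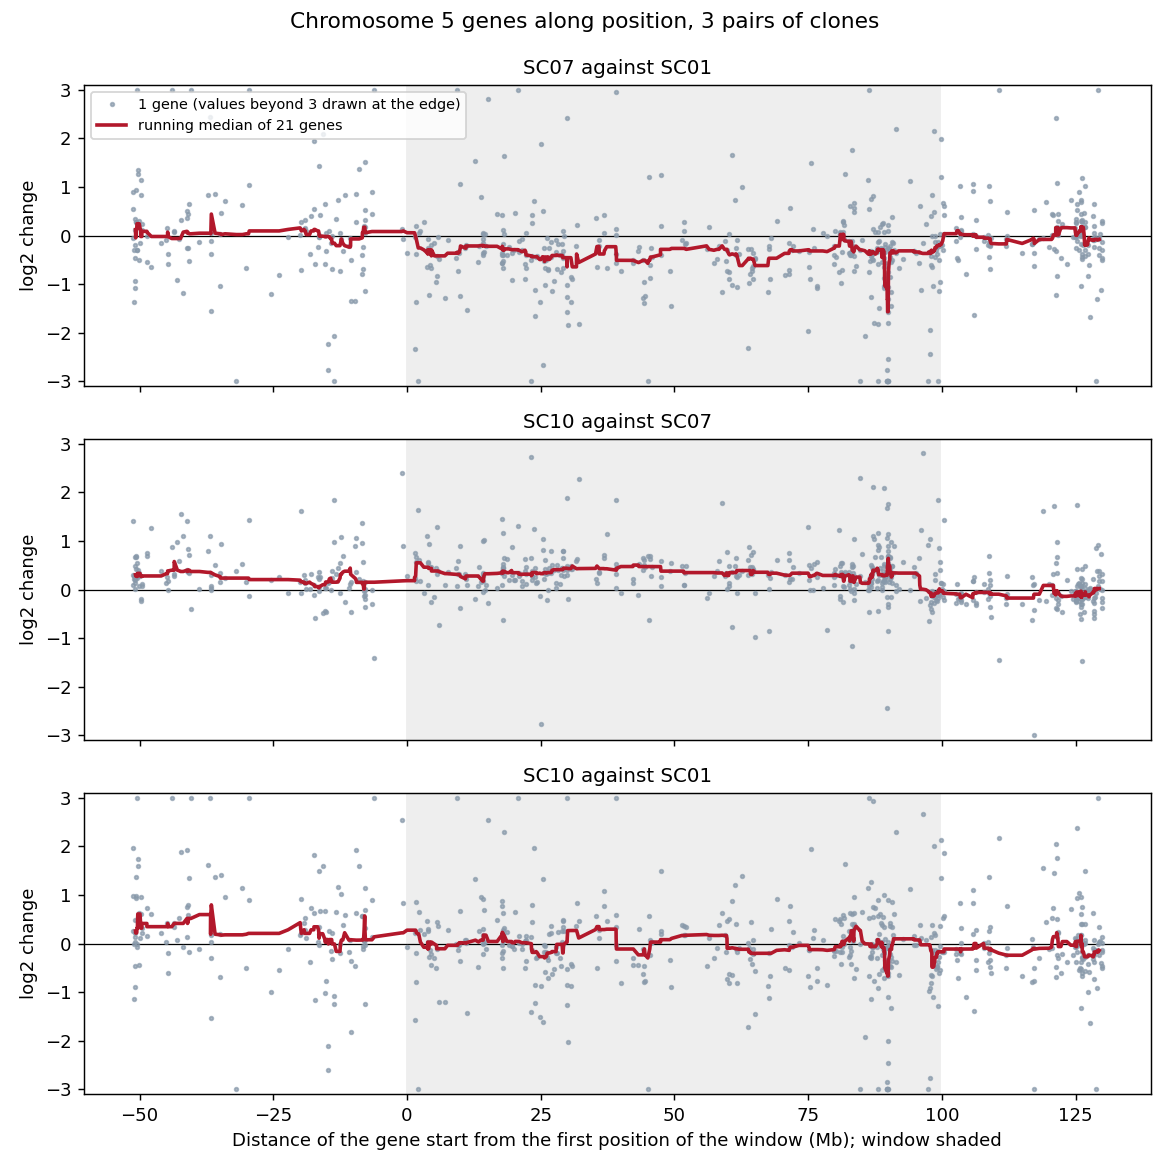
Log2 change of each chromosome 5 gene with the minimum (1 point per gene) against the distance of its start from the first position of the window in Mb, for the 3 pairs of clones, with a running median of 21 genes as a line and the window shaded. The running median of SC07 against SC01 sits below 0 over nearly all of the shaded stretch and on both sides of 0 outside it, and that of SC10 against SC07 lies above 0 over most of the stretch.

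The window level separated the clones in every library. Each gene was set to its log2(CPM + 0.5) minus the mean of the 3 clones, and the median over the 387 window genes was taken. SC01 libraries gave 0.149, 0.115 and 0.123, SC07 libraries -0.218, -0.188 and -0.246, and SC10 libraries 0.088, 0.095 and 0.077. The 3 clones did not overlap. SC07 stood off, but the window was chosen for its shift in SC07, so that is a description. Values are relative to the mean of the 3 clones, so a low SC07 raises the others. Minus the rest of chromosome 5, the window gave 0.153 ± 0.012 in SC01 (SD, n = 3), -0.209 ± 0.039 in SC07 and 0.034 ± 0.021 in SC10. Again no clone overlapped another, with SC10 between SC01 and SC07. The place of SC10 depended on the reference, since window minus the distal side alone was 0.0410 higher in SC10 than in SC01 (median log2 change), where window minus the rest was -0.12.

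The sides of the window ordered the clones differently. On the short-arm side the library medians were -0.092 ± 0.015 in SC01 (SD, n = 3), -0.064 ± 0.023 in SC07 and 0.174 ± 0.005 in SC10. SC10 was thus the clone apart there, and SC01 and SC07 overlapped. On the distal side they were 0.039 ± 0.011 in SC01, 0.030 ± 0.016 in SC07 and -0.055 ± 0.014 in SC10. By gene, SC07 had the lowest clone mean in 262 of 387 window genes (67.7%), in 41.7% of short-arm genes, in 22.1% of distal genes and in 27.2% of all genes with the minimum. The window was chosen for low SC07 values, so its share for SC07 is a description. SC01 had the highest mean in 209 window genes and SC10 in 148.

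Along the window the SC07 difference had the same sign in each 10 Mb bin. The bin medians of SC07 against SC01 were -0.32 (28 genes) from 50 to 60 Mb, -0.22 (39 genes) from 60 to 70 Mb, -0.40 (48 genes) from 70 to 80 Mb and -0.43 (26 genes) from 80 to 90 Mb. They were -0.48 (24 genes) from 90 to 100 Mb, -0.19 in the thin bin of 12 genes from 100 to 110 Mb and -0.48 (34 genes) from 110 to 120 Mb. From 120 to 130 Mb the median was -0.30 (20 genes), from 130 to 140 Mb it was -0.30 (70 genes) and from 140 to 150 Mb it was -0.45 (76 genes). Each of these bins had a median below 0, but the window was chosen by these values, so the shared sign is a description. Before 50 Mb the bin medians lay between -0.04 and 0.08. After 150 Mb they lay between -0.19, in the thin last bin of 16 genes, and 0.05. The bin from 150 to 160 Mb still held 12 window genes among its 41.

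SC10 against SC07 followed another course. Its bin medians lay between 0.28 and 0.45 from 50 to 150 Mb, were -0.07, -0.13 and -0.11 in the next 3 bins, and 0.17 in the thin last bin of 16 genes. On the short-arm side they were 0.31 from 0 to 10 Mb, 0.35 from 10 to 20 Mb, 0.19 in the thin bin of 7 genes from 20 to 30 Mb, 0.15 from 30 to 40 Mb and 0.03 from 40 to 50 Mb. So SC10 lay above SC07 both in the window and near the tip of the short arm, with the smallest value of the short-arm side just before the window.

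**Figure D2:**
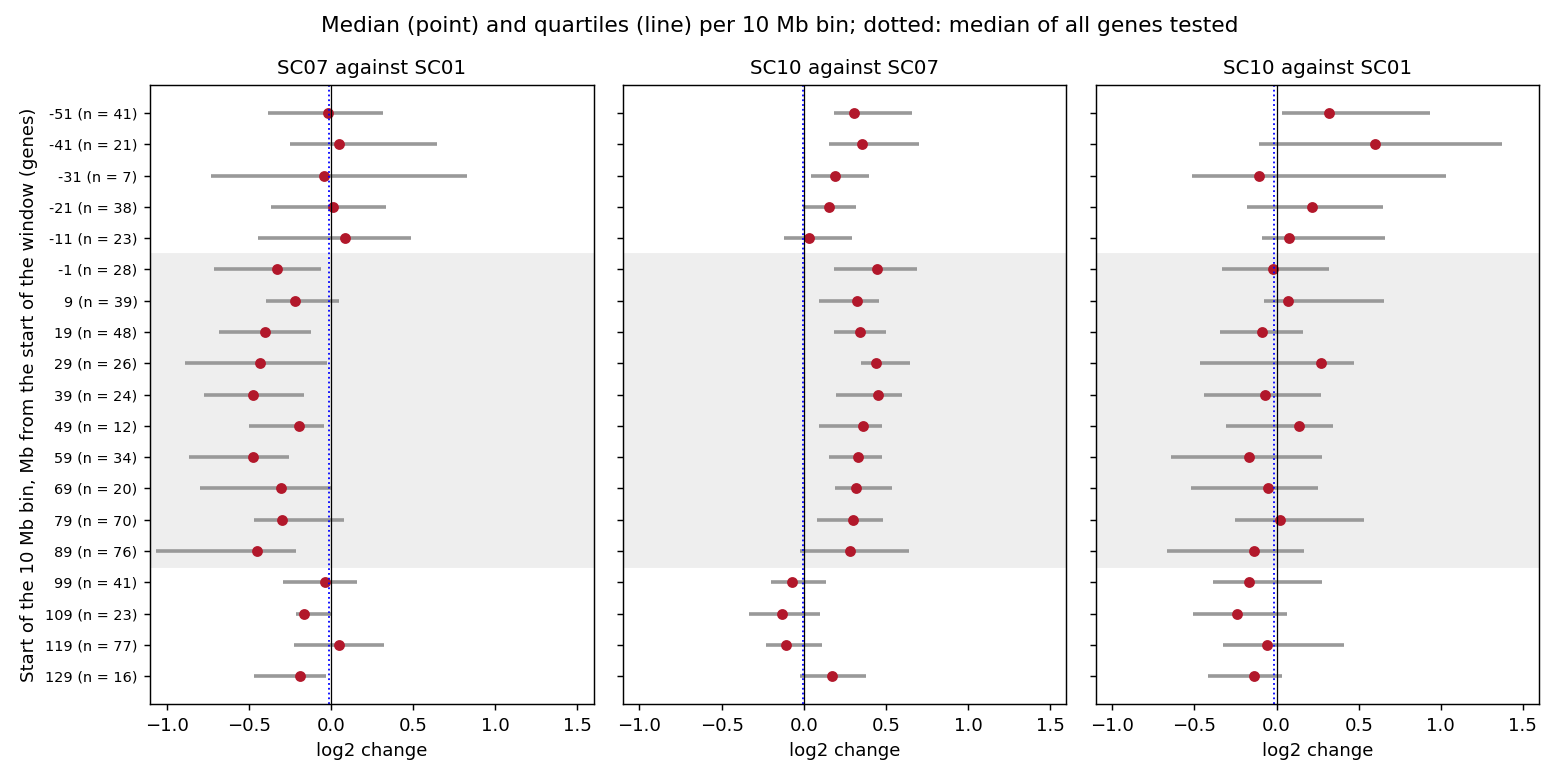
Median (point) and quartiles (line) of the log2 change of chromosome 5 genes in 10 Mb bins of gene start, for the 3 pairs of clones, with bins named by their distance from the window's start in Mb, the window shaded and the median of all genes tested dotted. Within the shading the medians of SC07 against SC01 lie between -0.48 and -0.19 and those of SC10 against SC07 between 0.28 and 0.45.

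The last stretch of the window behaved differently in SC10. The window was split at 145 Mb, a bin edge chosen after the values were seen. The 352 genes before it had medians of -0.36 for SC07 against SC01 and 0.34 for SC10 against SC07, and 305 of them lay above 0 in the second of these pairs. The 35 genes from 145 Mb on had medians of -0.31 and -0.07, and 22 of the 35 lay below 0 for SC10 against SC07. By library, those 35 genes gave 0.195 ± 0.027 in SC01 (SD, n = 3), -0.088 ± 0.028 in SC07 and -0.056 ± 0.029 in SC10. The 352 genes gave 0.125 ± 0.019 in SC01, -0.224 ± 0.029 in SC07 and 0.097 ± 0.006 in SC10. Before 145 Mb SC10 lay just under SC01 and far above SC07, and beyond it the SC10 and SC07 libraries overlapped.

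**Figure D3:**
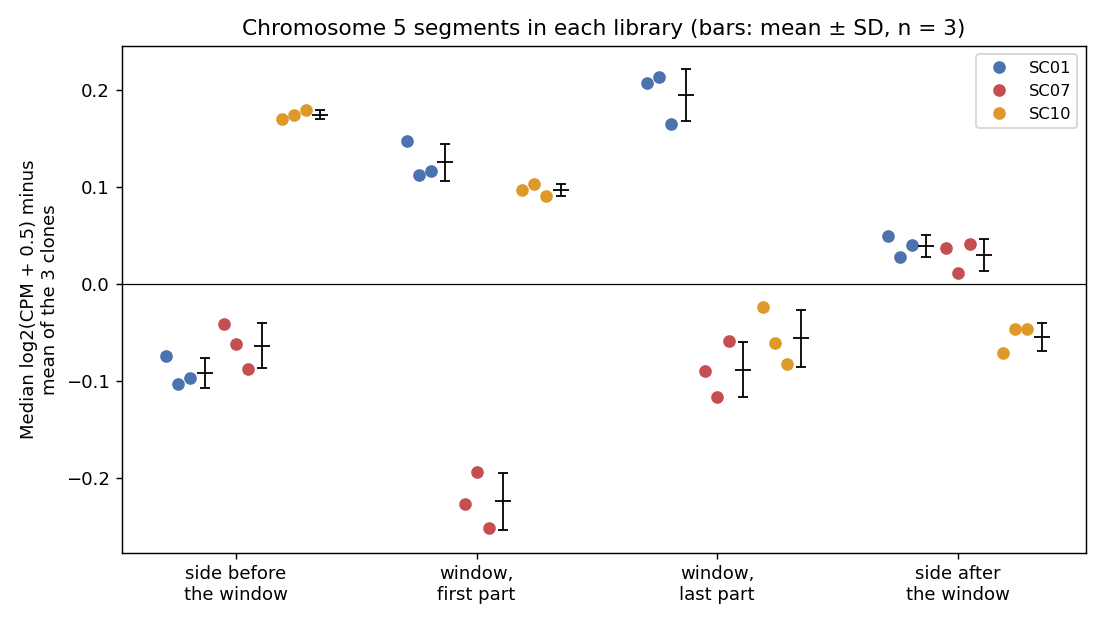
Median over the genes of each chromosome 5 segment of log2(CPM + 0.5) minus the mean of the 3 clones, with the window split at 145 Mb, 1 point per library and bars at the clone mean ± SD (n = 3). SC07 libraries lie lowest in the earlier stretch of the window, SC10 overlaps SC07 in its last stretch, and SC10 lies highest on the short-arm side.

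Single genes beyond that position, chosen after their values were seen, were not alike, and some genes before it, such as PLK2 and SEMA6A below, also had SC10 near SC07. LARS, the cytosolic leucyl-tRNA synthetase at 146113038, measured 225, 220 and 230 CPM in SC01, 182, 181 and 182 in SC07 and 255, 250 and 252 in SC10. LARS was low in SC07 alone, and SC10 exceeded SC01. FBXO38, a ubiquitin ligase subunit at 148383935, measured 25.7, 26.3 and 25.2 CPM in SC01, 29.5, 29.4 and 32.2 in SC07 and 28.0, 25.6 and 27.1 in SC10. RPS14, a small ribosomal subunit protein at 150442635, measured 509, 529 and 559 CPM in SC01, 409, 393 and 423 in SC07 and 373, 357 and 411 in SC10. For RPS14 the SC07 and SC10 libraries overlapped and both lay under SC01, and it fell in SC10 against SC01 by 0.49 ± 0.05 in log2 change (-0.49, adjusted p = 1.83e-09).

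The edges rest on few genes each. The 10 nearest members before the window had a median of 0.38 for SC07 against SC01, with 2 below 0, and the 10 nearest inside it -0.19, with 6 below 0. At the far edge the last 10 members had a median of -0.34, with 9 below 0, and the next 10 outside 0.23, with 4 below 0. PARP8, a poly-ADP-ribosyltransferase family member just outside, measured 18.7, 18.1 and 19.7 CPM in SC01, 18.8, 17.3 and 17.7 in SC07 and 34.7, 35.7 and 30.4 in SC10. EMB, a cell surface glycoprotein that assists monocarboxylate transporters, likewise stood at 1.48, 1.11 and 1.29 CPM in SC01, 1.64, 1.55 and 1.07 in SC07 and 8.31, 7.39 and 6.94 in SC10. Both were high in SC10 alone, and SC01 and SC07 overlapped.

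Inside the first edge, ISL1, a LIM homeobox transcription factor, measured 2.97, 2.37 and 2.87 CPM in SC01, 1.61, 2.73 and 2.03 in SC07 and 2.92, 2.31 and 2.57 in SC10, so all 3 clones overlapped. ITGA1, the alpha chain of a collagen-binding integrin, measured 9.48, 9.54 and 10.1 CPM in SC01, 1.83, 1.93 and 2.0 in SC07 and 3.24, 3.23 and 3.31 in SC10. Its clones did not overlap, with SC10 between the others. At the far edge ZNF300, a zinc finger protein, stood at 15.4, 15.6 and 15.9 CPM in SC01, 11.5, 11.1 and 10.5 in SC07 and 10.3, 10.3 and 10.2 in SC10. TNIP1, a ubiquitin-binding regulator of NF-kB signalling and the last window gene, measured 40.3, 43.5 and 40.4 CPM in SC01, 43.6, 40.2 and 43.3 in SC07 and 40.6, 39.5 and 40.3 in SC10, with overlap throughout. Beyond the edge, ANXA6, a calcium-dependent membrane-binding protein, had log2 changes of -0.21 for SC07 against SC01 and 0.57 for SC10 against SC07, and CCDC69 had 1.99 and 0.13.

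The window's genes were then read by function, in 9 lists of chromosome 5 genes. Counts at the threshold for SC07 are descriptions, to be read against the background shares above and the shares of the whole window. In the window 65.9% of genes were lower and 13.7% higher in SC07 than in SC01. In SC10, 62.5% were higher and 5.43% lower than in SC07. A difference between a list and the window was not tested. In each list the genes named are those of highest CPM, a value not scaled by gene length, unless another reason is given. Of 16 tumour suppressor and 5q deletion genes, all with the minimum, 11 were lower and 3 higher in SC07 than in SC01, with a median of -0.33, and SC10 against SC01 had 8 lower and 6 higher. CTNNA1, the alpha-catenin that ties cadherins to actin, measured 603, 624 and 617 CPM in SC01, 180, 173 and 174 in SC07 and 363, 357 and 360 in SC10. Its 3 clones were far apart, and SC10 fell against SC01 by 0.77 ± 0.04 (log2, adjusted p = 8.15e-16). APC, the Wnt pathway tumour suppressor, was named after its values were seen because it went the other way. It measured 59.2, 55.1 and 53.4 CPM in SC01, 94.4, 96.0 and 88.5 in SC07 and 135, 143 and 111 in SC10, lowest in SC01 and highest in SC10, where it rose against SC01 by 1.21 ± 0.08 (log2, adjusted p = 1.05e-08).

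Cell cycle, replication and repair genes shared the downward difference of the window, without a call in the other direction. Of 19, 14 were lower and 0 higher in SC07 than in SC01, with a median of -0.39, while 12 were higher and 0 lower in SC10 than in SC07. CCNB1, the mitotic cyclin B1, measured 122, 120 and 122 CPM in SC01, 94.1, 87.5 and 96.8 in SC07 and 95, 93.8 and 107 in SC10. SKP1, a core subunit of SCF ubiquitin ligases, measured 146, 148 and 148 CPM in SC01, 113, 108 and 115 in SC07 and 121, 120 and 135 in SC10. PLK2, a polo-like kinase of centriole duplication and stress, measured 132, 126 and 125 CPM in SC01, 49.2, 51.2 and 56.3 in SC07 and 52.0, 57.4 and 58.3 in SC10. In all 3 genes SC01 lay above both other clones, and each fell in SC10 against SC01, PLK2 most, by 1.19 ± 0.05 (log2, adjusted p = 4.60e-17). For SC10 against SC01 the list had 9 lower and 5 higher.

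Translation genes were as one-sided. Of 12, 11 were lower and 0 higher in SC07 than in SC01, with a median of -0.39, and 10 were higher and 1 lower in SC10 than in SC07. RPS23, a small ribosomal subunit protein, measured 387, 386 and 410 CPM in SC01, 217, 210 and 207 in SC07 and 277, 253 and 323 in SC10. BTF3, the beta subunit of the nascent polypeptide-associated complex, measured 382, 379 and 389 CPM in SC01, 206, 209 and 202 in SC07 and 261, 256 and 293 in SC10. Both had 3 clones that did not overlap, in the order SC07, SC10, SC01. RPS23 fell in SC10 against SC01 by 0.47 ± 0.07 (log2, adjusted p = 2.15e-05) and BTF3 by 0.50 ± 0.05 (adjusted p = 1.87e-10). The list had 5 lower and 2 higher in that pair, or 7 and 1 with library totals. Outside the window its 9 members were 3 lower and 3 higher in SC07 than in SC01.

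Mitochondrial genes were not mostly lower in SC07 than in SC01, but they were mostly higher in SC10 than in SC07. Of 14 with the minimum among 15, 3 were lower and 6 higher in SC07 than in SC01, with a median of 0.06, which became 6 lower and 5 higher with a median of -0.04 under library totals. In SC10 13 were higher and 0 lower than in SC07, and 11 rose and 1 fell against SC01. The 8 members outside the window also ran higher in SC07, with 5 higher and 1 lower and a median of 0.31. HSPA9, the mitochondrial HSP70 chaperone, measured 498, 485 and 517 CPM in SC01, 557, 548 and 550 in SC07 and 715, 723 and 744 in SC10. COX7C, a subunit of cytochrome c oxidase, measured 197, 200 and 209 CPM in SC01, 264, 256 and 256 in SC07 and 287, 275 and 336 in SC10. UQCRQ, a subunit of complex III that shares 20.8% of its exon bases with another gene, measured 107, 109 and 121 CPM in SC01, 137, 137 and 138 in SC07 and 163, 156 and 191 in SC10. All 3 were lowest in SC01 and highest in SC10, without overlap, and rose in SC10 against SC01 by 0.54 ± 0.04 (log2, adjusted p = 2.62e-12) for HSPA9, 0.57 ± 0.06 (adjusted p = 6.68e-09) for COX7C and 0.60 ± 0.06 (adjusted p = 1.42e-07) for UQCRQ.

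Proteolysis, lysosome and lipid genes were lower in SC07 about as often as the whole window, where 65.9% were lower. Of 19, 13 were lower and 3 higher in SC07 than in SC01, with a median of -0.26, and 15 were higher and 1 lower in SC10 than in SC07. SC10 against SC01 had 5 lower and 10 higher, or 6 and 6 with library totals. VDAC1, the main channel of the outer mitochondrial membrane, was counted in this list and not in the mitochondrial one. It measured 373, 381 and 370 CPM in SC01, 354, 336 and 353 in SC07 and 444, 429 and 476 in SC10. CAST, the inhibitor of calpain proteases, went against the window with 171, 169 and 166 CPM in SC01, 396, 388 and 376 in SC07 and 257, 253 and 242 in SC10. SC07 was the highest clone for CAST and SC10 lay between.

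Transcription and signalling genes were mostly lower in SC07 too, as the whole window was (65.9% lower). Of 19 transcription and chromatin genes with the minimum among 21, 16 were lower and 1 higher in SC07 than in SC01 (median -0.33), and 13 were higher and 0 lower in SC10 than in SC07. SC10 against SC01 had 7 lower and 5 higher. CHD1, a chromatin remodeller, measured 132, 118 and 120 CPM in SC01, 91.6, 101 and 87.8 in SC07 and 144, 153 and 126 in SC10, so only SC07 stood apart. H2AFY, which encodes the macroH2A1 histone and shares 30.9% of its exon bases with another gene, measured 150, 155 and 153 CPM in SC01, 99.6, 97.8 and 100.3 in SC07 and 110, 106 and 106 in SC10, and it fell in SC10 against SC01 by 0.51 ± 0.04 (log2, adjusted p = 2.15e-11). HMGXB3, an HMG box protein, had log2 changes of -0.13 for SC07 against SC01 and -0.07 for SC10 against SC07.

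Of 21 signalling genes with the minimum among 28, 13 were lower and 3 higher in SC07 than in SC01 (median -0.21), and 14 were higher and 1 lower in SC10 than in SC07. SC10 against SC01 had 8 lower and 9 higher, or 10 and 6 with library totals. DIAPH1, a formin that builds actin filaments, had log2 changes of -0.28 for SC07 against SC01 and 0.16 for SC10 against SC07. PPP2CA, a catalytic subunit of protein phosphatase 2A, had -0.37 and 0.31. NDFIP1, an adaptor of NEDD4-type ubiquitin ligases, had -0.14 and 0.48. In these genes SC07 was the lowest clone, and for PPP2CA the SC10 and SC01 libraries overlapped.

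Matrix and adhesion genes had the median furthest from 0 among the 9 lists. Of 11 with the minimum among 19, 9 were lower and 1 higher in SC07 than in SC01, with a median of -1.82, and 6 were higher and 0 lower in SC10 than in SC07. Against SC01, 9 fell in SC10 and 2 rose. TGFBI, a matrix protein induced by TGF-beta and named for the size of its change, measured 88.4, 91.1 and 90.7 CPM in SC01, 1.10, 0.670 and 1.28 in SC07 and 5.80, 5.16 and 3.75 in SC10. VCAN, the large proteoglycan versican, measured 273, 249 and 236 CPM in SC01, 71.3, 71.8 and 71.9 in SC07 and 380, 383 and 276 in SC10. TGFBI was low in both other clones, whereas VCAN was low in SC07 alone, and SC10 replicate 3 was well under the other SC10 libraries. VCAN's difference of 0.46 ± 0.13 between SC10 and SC01 (log2, adjusted p = 0.0184) lost the call with library totals (adjusted p = 0.0573), without SC01 replicate 2 (0.0537) or 3 (0.0606) and without SC10 replicate 1 (0.0547) or 2 (0.0589). SEMA6A, a transmembrane semaphorin, measured 115, 111 and 111 CPM in SC01, 79.0, 80.9 and 81.0 in SC07 and 78.9, 78.0 and 72.7 in SC10, and it fell in SC10 against SC01 by 0.55 ± 0.05 (log2, adjusted p = 2.35e-11).

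Of 5 pigment cell genes in the window, 4 had the minimum, and all 4 were lower in SC07 than in SC01 (median -0.85). The list's 2 members outside the window were higher in SC07 (median 1.21), so the lower level was not that of the whole list. PPARGC1B, a coactivator of mitochondrial and oxidative genes, measured 28.3, 29.4 and 28.6 CPM in SC01, 15.1, 12.8 and 14.3 in SC07 and 14.1, 14.0 and 12.1 in SC10. AP3B1, a subunit of the adaptor complex that sorts cargo to melanosomes, measured 80.4, 75.2 and 77.0 CPM in SC01, 67.8, 63.0 and 64.2 in SC07 and 89.1, 90.1 and 87.9 in SC10. SC10 overlapped SC07 for PPARGC1B and lay above SC01 for AP3B1. PPARGC1B fell in SC10 against SC01 by 1.10 ± 0.08 (log2, adjusted p = 4.28e-13), while AP3B1's difference of 0.20 ± 0.05 (adjusted p = 0.000515) lost the call with library totals (adjusted p = 0.0978). SLC12A2, a sodium-potassium-chloride cotransporter, measured 30.6, 29.3 and 30.5 CPM in SC01, 14.8, 15.7 and 13.7 in SC07 and 19.9, 18.7 and 14.7 in SC10.

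**Figure D4:**
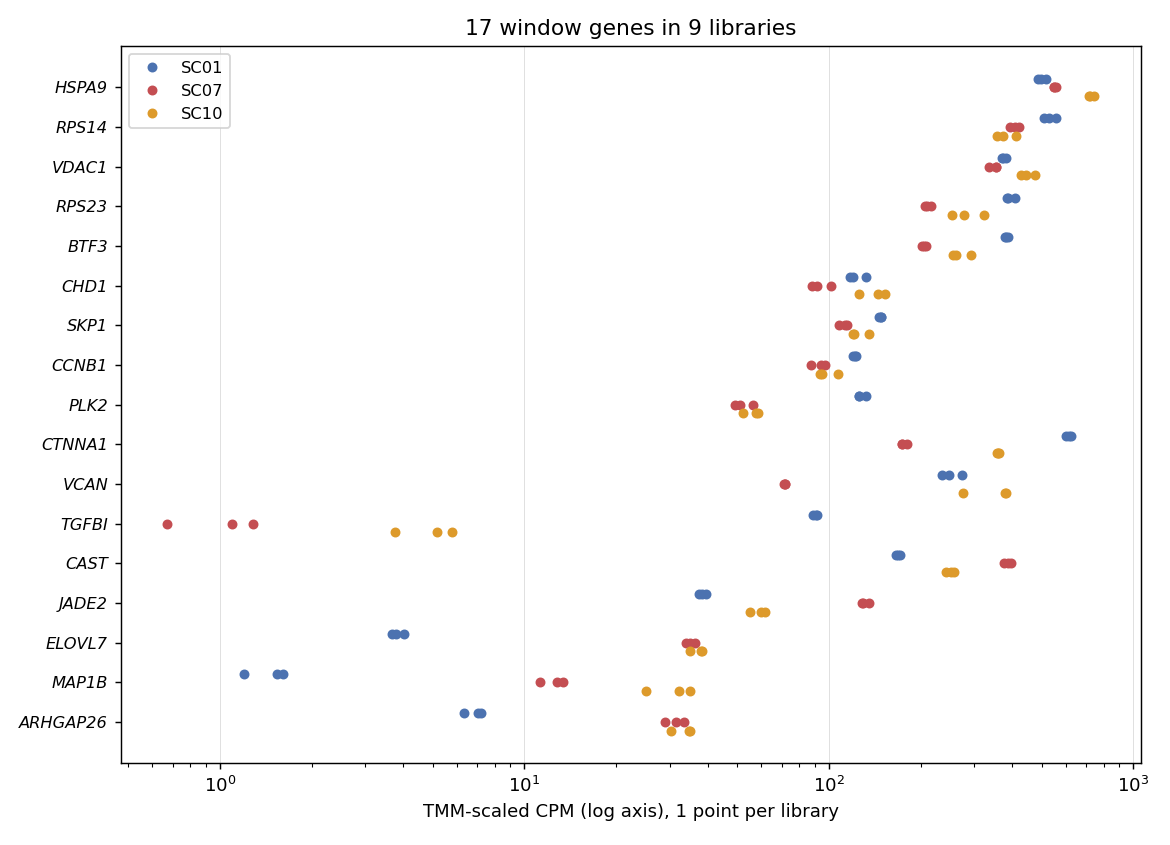
TMM-scaled CPM on a log axis for 17 window genes, with 1 point per library coloured by clone. CTNNA1, RPS23 and BTF3 show SC07 lowest with SC10 between, HSPA9 shows SC10 highest, and CAST and JADE2 show SC07 highest.

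The window also held genes with changes far past its median. At least 2-fold lower in SC07 than in SC01 were 64 genes and at least 2-fold higher 20, while 162 of 387 (41.9%) lay within 0.25 of the median log2 change. PCSK1, a prohormone convertase, measured 19.9, 18.7 and 19.3 CPM in SC01 and at most 0.0304 in SC07 and 0.0890 in SC10. It had 1962 counts in the SC01 libraries, 3 in those of SC07 and 5 in those of SC10, a ratio of SC01 to SC07 of 730 (95% exact interval 249 to 3542, counting error only). PCSK1 met the minimum only in SC01, so its near absence from the other clones is a description of a gene that entered through the clone where it was high.

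ENC1, an actin-binding kelch protein, measured 15.1, 14.3 and 14.4 CPM in SC01, 0.639, 0.979 and 0.836 in SC07 and 4.82, 6.88 and 4.90 in SC10. TMEM173, the innate immune adaptor STING, measured 9.53, 8.47 and 9.07 CPM in SC01, 0.852, 0.799 and 0.806 in SC07 and 0.681, 0.564 and 0.561 in SC10. SC01 was the highest clone for both, and SC10 lay between the others for ENC1 but not for TMEM173. Both genes were picked for the size of a called change, with the libraries of that pair apart. In SC10 against SC01 ENC1 fell by 1.40 ± 0.12 (log2, adjusted p = 4.11e-11). TMEM173 met the minimum only in SC01, so its lower level in the other clones follows from how members were chosen.

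Some window genes were higher in SC07, against the run of their neighbours. The genes given were picked for the largest called changes of a pair, with its libraries apart. Their size and adjusted p values therefore describe picked genes. ELOVL7, a fatty acid elongase, measured 4.01, 3.67 and 3.77 CPM in SC01, 35.1, 33.9 and 36.2 in SC07 and 38.0, 38.4 and 34.9 in SC10. ARHGAP26, a GTPase-activating protein, measured 6.32, 7.02 and 7.18 CPM in SC01, 33.5, 29 and 31.6 in SC07 and 35.0, 34.7 and 30.4 in SC10. In these SC07 and SC10 overlapped and both lay above SC01, and in SC10 against SC01 ELOVL7 rose by 3.28 ± 0.08 (log2, adjusted p = 2.59e-23) and ARHGAP26 by 2.29 ± 0.08 (adjusted p = 1.85e-19). MAP1B, a microtubule-associated protein of neurites, measured 1.54, 1.61 and 1.20 CPM in SC01, 13.4, 12.8 and 11.2 in SC07 and 32.3, 34.9 and 25 in SC10. JADE2, a chromatin reader of histone acetylation complexes, measured 39.6, 38.2 and 37.4 CPM in SC01, 130, 128 and 135 in SC07 and 60.0, 61.7 and 55.0 in SC10. MAP1B was higher still in SC10, while JADE2 was highest in SC07, and in SC10 against SC01 they rose by 4.40 ± 0.15 (log2, adjusted p = 3.19e-15) and 0.62 ± 0.05 (adjusted p = 3.78e-11).

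Some window genes were set apart by SC10. Those given here were picked for the largest called changes of a pair, with its libraries apart. Their separation and adjusted p values follow in part from that pick. SPINK1, a secreted trypsin inhibitor, measured 1.18, 1.04 and 1.08 CPM in SC01, 0.792, 1.13 and 1.04 in SC07 and 6.40, 6.82 and 7.83 in SC10. REEP2, a shaping protein of the endoplasmic reticulum, measured 1.98, 2.88 and 3.08 CPM in SC01, 4.60, 4.30 and 5.02 in SC07 and 21.2, 18.9 and 20.4 in SC10. ACOT12, an acyl-CoA thioesterase, measured 0.659, 0.569 and 0.689 CPM in SC01, 3.84, 2.89 and 3.58 in SC07 and 11.3, 12.9 and 13.9 in SC10. SC10 lay above both other clones in all 3, and against SC01 they rose by 2.66 ± 0.17 (log2, adjusted p = 7.20e-14), 2.94 ± 0.12 (adjusted p = 3.87e-18) and 4.30 ± 0.16 (adjusted p = 6.62e-19). SH3TC2, an endosomal protein of Schwann cell myelination, was lower in SC10 than in SC07, with 37.9, 36.5 and 37.4 CPM in SC01, 29.7, 29.5 and 29.3 in SC07 and 18.6, 20.6 and 17.4 in SC10. ARHGEF37, a guanine nucleotide exchange factor, had log2 changes of 0.84 for SC07 against SC01 and -0.46 for SC10 against SC07.

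The clustered protocadherins, grouped after their values were seen, entered the window mostly through SC01. Of 16 measured beta protocadherins, 9 had the minimum, and all 9 met it only in SC01, so that their lower level elsewhere follows from how they were chosen. Their clone means were 1.18 to 5.74 CPM in SC01, 0.116 to 0.362 in SC07 and 0.030 to 0.539 in SC10. PCDHB5 among them measured 5.52, 5.15 and 4.91 CPM in SC01, 0.152, 0.0773 and 0.119 in SC07 and 0.463, 0.356 and 0.295 in SC10. Of 22 gamma protocadherins 7 had the minimum, and of 15 alpha protocadherins 0 did. These genes share sequence within a cluster, so their counts are uncertain. In all, 21 window genes met the minimum in 1 clone only, 17 of them in SC01, and 331 had at least 1 CPM in all 9 libraries.

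The median was below 0 in each gene type and level class of the window, which is a description of the values that chose it. For SC07 against SC01 the median was -0.35 over protein-coding genes and -0.38 over the other types. It was -0.45 for the 102 window genes with a mean under 5 CPM, -0.36 for the 194 between 5 and 50 CPM and -0.29 for the 91 at 50 CPM or above. The lowest class includes genes that met the minimum only in SC01, such as the beta protocadherins, whose lower level in SC07 follows from that choice. Window genes had a median GC content of 42.8%, against 44.5% on the short-arm side, 51.0% on the distal side and 48.1% over all genes with the minimum. With GC content taken out, window minus rest was -0.38, against -0.35 without.

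The sequence at the starts of the genes was not used in choosing them. RefSeq start regions were matched for 311 of 387 window genes, 93 short-arm genes and 119 distal genes. The median number of CG dinucleotides in the 300 bases was 25 in the window, 30 on the short-arm side and 26 on the distal side. Over all 35116 start regions, which were not limited to genes with the minimum, it was 14. The shares below were not adjusted for this difference in base content. The E-box CACGTG, the core that MITF and related factors can bind and its own reverse complement, was present in 28 window starts (9.0%), 10.8% of short-arm starts and 10.9% of distal starts, against 7.26% of all 35116 start regions. CATGTG on either strand was present in 20 window starts (6.43%), 3.23% of short-arm starts and 6.72% of distal starts, against 11.1% of all. A match is a description of the letters only.

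Other chromosomes moved as well. The median log2 change of SC07 against SC01 over the genes of each of the other 22 chromosomes ran from -0.39 on chromosome 6 to 0.40 on chromosome 4, and 1 of the 22 lay below the window's -0.35. For SC10 against SC07 the range was -0.34 on chromosome 12 to 0.30 on chromosome 10, and 0 of 22 lay above the window's 0.33. The window is a chosen part of a chromosome, so its rank among whole chromosomes in these pairs is a description. Chromosome 5 as a whole had -0.22 for SC07 against SC01, with chromosomes 6 (-0.39) and 22 (-0.35) lower. As a whole it had 0.25 for SC10 against SC07, with chromosomes 10 (0.30) and 11 (0.28) higher. For SC10 against SC01, 10 of 22 lay below the window and 12 above it.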

How the data were processed

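RNA of 9 libraries, 3 for each of the clones SC01, SC07 and SC10, was extracted with Trizol and sequenced after standard Illumina preparation, per the labels. The authors deposited a table of raw read counts for 60675 Ensembl genes. HISAT2, featureCounts and GRCh38 are named in the submitters' processing notes, and the sources used here give no versions, annotation release or strand setting, so counts of overlapping genes are uncertain. Names and positions came from GENCODE 29 (GRCh38), which held 57055 of the IDs. Of the genes with the minimum, 61 had no position and were left out.

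The minimum of 1 CPM used library totals, whereas printed CPM values are TMM-scaled. The test was that of edgeR 4.0.16 under R 4.3.3, in 1 fit of the 9 libraries together (filterByExpr, 18009 genes tested, robust quasi-likelihood test), with Benjamini-Hochberg adjustment over all of them at 0.05. All 664 members were in the fit. The ± of a log2 change is its standard error, derived from the fitted change and its F statistic, and is too small where a clone held a few counts. Total counts of 30224066 to 39454087 per library set the precision. The scripts were tested on simulated data. Groups and replicate numbers came from the labels. Libraries with the same number did not deviate together (correlations -0.018 to 0.064), so the numbers were not taken to pair them.

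The members and lists were chosen with earlier results of these data known. Named genes were the 3 window genes and the 1 other chromosome 5 gene of highest mean CPM in each list, the 4 protein-coding window genes with the largest called change in each direction of each pair (5 CPM or more in the higher clone, libraries apart), the nearest 2 members on each side of each edge, and the 3 of highest CPM in and out of the window. Names without a proper symbol and pseudogenes were passed over, some genes taken by this rule are not reported here, and others were named after their values were seen, as said there. Alternatives were other scalings and filters, DESeq2 1.42.0, limma-voom 3.58.1, a replicate block, each pair alone, each library left out, other references, a GC correction and other member rules. Start regions came from RefSeq (GRCh38.p14).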

Additional observations from a re-analysis of the deposited data

How the results depend on the processing

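Window minus the rest of chromosome 5 kept its sign in all alternatives for SC07 against SC01 (-0.35) and SC10 against SC07 (0.24), and for SC10 against SC01 (-0.12) in all but 1. The value depended on the reference. Against the short-arm side alone it was -0.396, 0.0877 and -0.30 for the 3 pairs in that order. Against the distal side alone it was 0.396 for SC10 against SC07 and turned to 0.0410 for SC10 against SC01. Against genes off chromosome 5 it was 0.342 and -0.0457 for those 2 pairs. With members of mean 5 CPM or more, SC10 against SC01 gave -0.0845 and the count of window genes called higher in SC07 than in SC01 was 34, against 53. With the window drawn in by 5 Mb, 10 genes in place of 21 were called lower in SC10 than in SC07. The last 2 counts cover fewer genes by construction, and the cause of the others was not tested.

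Leaving out 1 library at a time gave -0.385 to -0.341, 0.218 to 0.259 and -0.130 to -0.091, with the last value of SC10 against SC01 coming from the fit without SC01 replicate 2. Counts then ran from 240 to 253 lower and 48 to 53 higher for SC07 against SC01, 16 to 21 and 227 to 250 for SC10 against SC07, and 132 to 149 and 118 to 130 for SC10 against SC01. The replicate block gave -0.35, 0.24 and -0.12, with 259 lower and 52 higher, 22 and 246, and 153 and 125. Of the values of named genes under the alternatives, 1791 stayed on their side of the threshold, 42 lost a call, 15 gained one and 0 reversed. Depth limits genes near 0 CPM, such as PCSK1 and the beta protocadherins, where 1 read moves the value.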
